A study of Mus musculus with 6 samples.

Results

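Genes of the Wnt signalling pathway were measured in mouse dorsal skin exposed to a contact sensitizer, in skin given clodronate liposomes and in skin given liposomes without the drug. The set held every protein-coding gene named Wnt, Fzd, Sfrp, Dkk or Rspo with a number, together with Lrp5, Lrp6, Lgr4, Lgr6, Axin2, Lef1, Tcf7, Tcf7l2, Ctnnb1, Wif1, Nkd1, Nkd2, Notum, Porcn and Wls. It came to 56 of the 55487 genes in the deposited table of read counts, and the rule used names alone. The set was chosen with earlier results of these data known. All 6 libraries came from polyadenylated RNA of whole skin treated with DPCP (diphencyprone, a contact sensitizer) and taken on day 2. In 3 of them DPCP was combined with clodrosome (spelled Codrosome in the sample labels), liposomes that carry clodronate and kill phagocytes that take them up. The other 3 received DPCP with encapsome, the matching liposomes without clodronate. Skin without DPCP was not part of the comparison, and the strain, age and route of the liposomes are not given in the sources used here.

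Letters A, B and C name the libraries of a group in the order of the table's columns and pair nothing across groups. Clodrosome library A was sequenced more deeply, at 116965654 counts, than the other 5 libraries, which held 26649396 to 35566351 counts. Nothing in the labels ties the libraries to different animals, and every p-value below therefore reflects library-to-library spread, which may be technical. The share of counts in rRNA genes was 0.238% to 0.405% in 3 libraries (clodrosome A and C, encapsome A) and 0.693% to 0.753% in the other 3. The rRNA share term used below is this split into a low and a high side, cut at the largest gap in these values. The sides are not balanced between the groups.

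Wnt proteins are secreted growth factors that act over short distances. The acyltransferase encoded by Porcn attaches a lipid to them, the carrier encoded by Wls brings them to the cell surface, and the secreted enzyme encoded by Notum can take the lipid off again. At the receiving cell they bind a Frizzled receptor (Fzd genes) and a co-receptor, Lrp5 or Lrp6, after which beta-catenin (Ctnnb1) accumulates and acts with the DNA-binding factors encoded by Tcf7, Lef1 and Tcf7l2. R-spondins and their receptors Lgr4 and Lgr6 keep Frizzled at the membrane, whereas the Sfrp, Dkk and Wif1 products interfere outside the cell. In skin, Wnt signals are needed for hair follicles to form and to start a new growth phase, and for the basal cells of the epidermis to renew.

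The lipid sits on a serine in a stretch that the ligands share, and the coding bases around this serine show what the ligand genes have in common and where they differ. A search of the reading frames of GENCODE M21 transcripts for the codon pattern of that stretch found it in 19 of 19 Wnt genes, each time within 1 exon. The 24 coding bases are given for the 4 ligands whose level differed between the groups and for Wnt2, on GRCm38 and 5′ to 3′ on the coding strand, with the serine codon in capitals.
Wnt4 (chr4:137296345-137296368, plus strand): tgtcacggggtgTCGggctcctgc
Wnt10a (chr1:74803156-74803179, plus strand): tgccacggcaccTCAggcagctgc
Wnt7a (chr6:91366272-91366295, minus strand): tgccatggtgtgTCAggctcctgt
Wnt3 (chr11:103812314-103812337, plus strand): tgccacgggttgTCCggcagctgc
Wnt2 (chr6:18008792-18008815, minus strand): tgtcatggtgtgAGTggctcctgt
The first 4 sequences differed from each other at 5 to 8 of the 24 bases. Wnt2 is shown because it and Wnt2b spell the serine with a codon beginning AG, whereas the other 17 ligand genes use one beginning TC.

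Clodrosome skin had more RNA of Wnt4, Wnt10a and Wnt7a, of the acyltransferase gene Porcn, of the receptor genes Fzd6, Fzd3, Fzd7 and Lgr4, of the inhibitor genes Sfrp1 and Dkk3 and of the target gene Axin2. It had less RNA of the ligand gene Wnt3, the co-receptor gene Lrp6 and the inhibitor genes Sfrp2 and Dkk2. These 15 genes were called among 50 members with enough counts to be tested, 11 of them higher and 4 lower in clodrosome skin (edgeR quasi-likelihood test, Benjamini-Hochberg adjusted p under 0.05 over 17988 genes). Of all genes tested 22.4% were called, 9.41% higher and 13% lower. The groups did not overlap for 21 of the 50 members, beside 40.2% of all tested genes. The median log2 fold change, clodrosome over encapsome, was 0.070 over the 50 members and 0.0090 over all tested genes. The 15 called members lay between -1.18 for Sfrp2 and 0.88 for Wnt7a on the log2 scale. RNA of whole skin cannot tell fewer cells of a type from less RNA per cell.

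**Figure D1:**
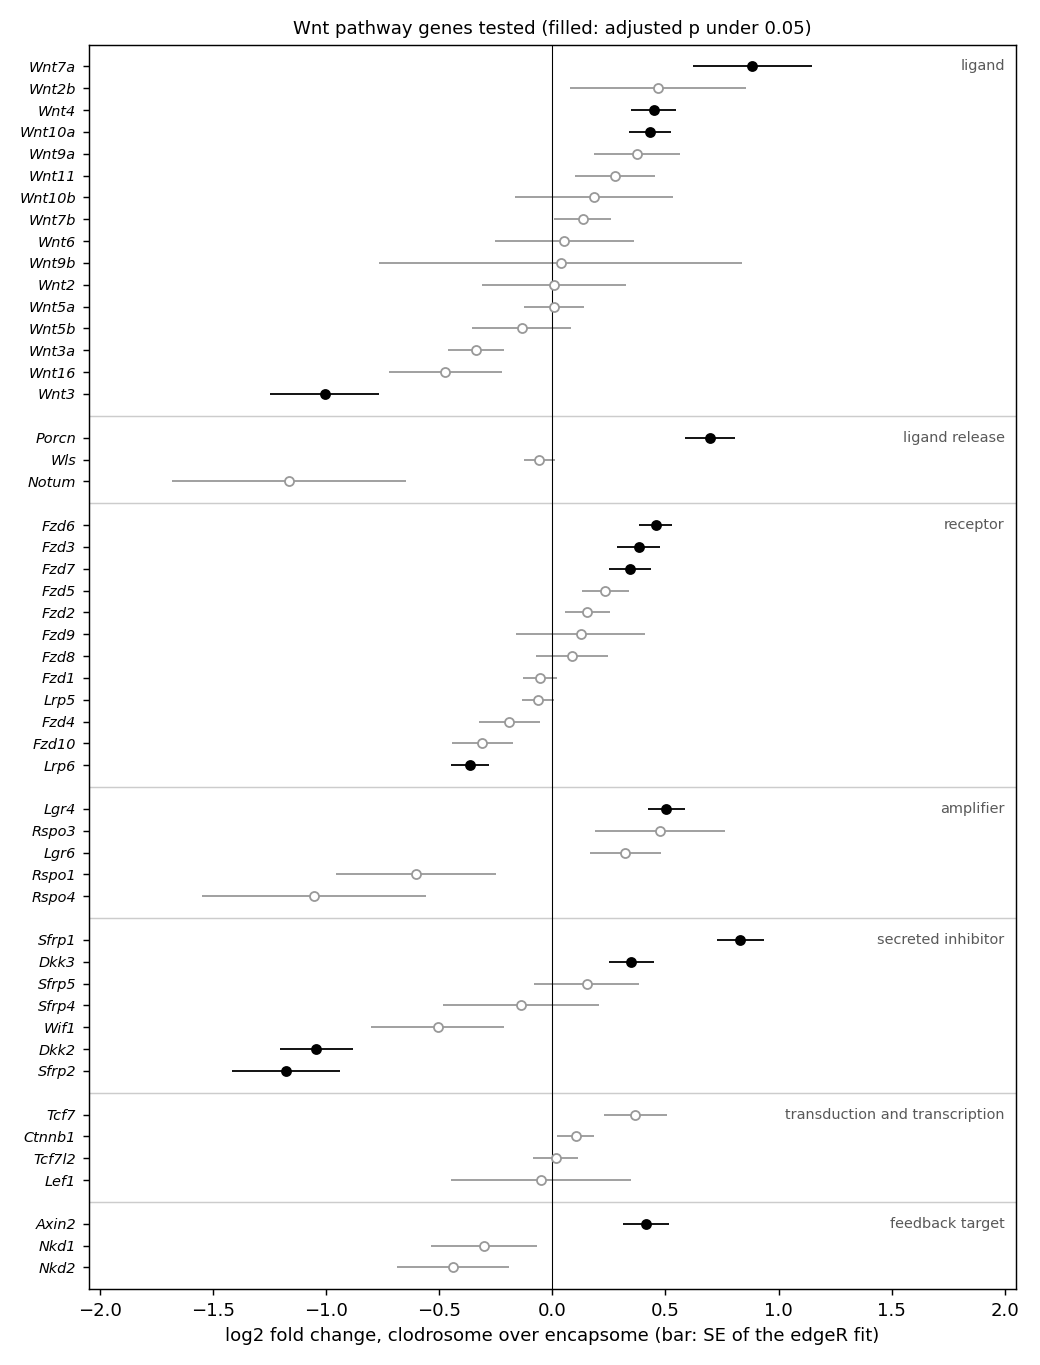
Log2 fold change of the 50 tested Wnt pathway genes, clodrosome over encapsome, with genes on the vertical axis by role and the SE of the edgeR fit as bars. Filled points mark the 15 called genes, of which Sfrp2 at -1.18 was the farthest to the left and Wnt7a at 0.88 the farthest to the right.

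Markers of several cell types moved between the same libraries, and their part in the results for Wnt genes was not tested. The lists were chosen with earlier results of these data known. Beside the counts below, 9.41% of all tested genes were called higher and 13% lower. All 11 macrophage markers were lower with clodrosome, with sums of 1997 to 3199 CPM in clodrosome libraries and 7265 to 8086 CPM in encapsome libraries (CPM, counts scaled to the library's size). Of 13 fibroblast markers 8 were lower and 0 higher, with sums of 3474 to 5625 CPM in clodrosome libraries and 9604 to 11023 CPM in encapsome libraries. Of 9 basal keratinocyte markers 6 were higher and 0 lower, with sums of 24403 to 24673 CPM in clodrosome libraries and 16623 to 20584 CPM in encapsome libraries, whereas of 11 differentiated keratinocyte markers 2 were higher and 5 lower, with sums of 3393 to 3767 CPM in clodrosome libraries and 3330.3 to 3995 CPM in encapsome libraries. The called log2 fold changes in that list ran from -2.18 for Lor, a cornified envelope gene, to 0.46 for Sbsn, and Krt1, Krt10, Flg and Tgm3 were lower and Cnfn higher. Of 10 markers of the follicle's outer sheath and stem cells 5 were higher and 1 lower, with sums of 865 to 1181 CPM in clodrosome libraries and 688 to 737 CPM in encapsome libraries. Blood endothelial and skeletal muscle markers were higher in 6 of 9 and 6 of 10 cases and lower in 0. In the lists for dermal papilla, smooth muscle, melanocyte, Schwann cell, adipocyte and neutrophil 0 to 2 markers were called in either direction. Smooth muscle, melanocyte and Schwann cell sums did not overlap. They were 1161 to 1345, 31.3 to 38.9 and 209 to 254 CPM in clodrosome libraries. In encapsome libraries they were 721 to 881, 21.5 to 29.9 and 301 to 308 CPM. Des held the largest part of the smooth muscle sums, with means of 711 CPM in clodrosome skin and 369 CPM in encapsome skin. In that list only Des and Acta2 were called, both higher, and sums without Des were not taken. The 7 Schwann cell markers had lower sums but a median log2 fold change of 0.16, with Cdh19 called higher and Pmp22 lower. Sums of dermal papilla, adipocyte and neutrophil markers overlapped. Among dermal papilla markers Crabp1 was lower at -2.29 and Sostdc1 higher at 1.72 on the log2 scale. Retnlg and Ly6g were the neutrophil markers called higher. Sums of hair matrix and shaft markers were low, at 43.0 to 46.0 CPM in clodrosome libraries and 42.7 to 53.5 CPM in encapsome libraries, and Krt25, Krt33a and Krt34 had a count of 0 in every library. Gata3 made up the largest part, with means of 22.2 CPM in clodrosome skin and 27.3 CPM in encapsome skin. Krt28, the highest keratin in this list, averaged 0.388 and 0.456 CPM in the same order. Of 6 tested genes in the list 1, Hoxc13, was higher and 0 lower.

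Levels of different genes were compared per exonic length, as TPM, computed from the counts and the table's gene lengths. Ctnnb1 stood highest, with means of 324 TPM in clodrosome skin and 293 TPM in encapsome skin, followed by Sfrp1 at 142 and 77.8 TPM. Among ligands Wnt4 (37.7 and 26.8 TPM) and Wnt10a (36.9 and 26.5 TPM) lay above all others, and Wnt3a came next at 8.03 and 9.87 TPM. Together Wnt4 and Wnt10a held most of the ligand RNA, at 34.0% and 33.4% of the summed ligand TPM in clodrosome skin and 29.9% and 29.5% in encapsome skin. The library values of Wnt4 and Wnt10a overlapped in both groups, so their order is not resolved. The lowest measured part of the set was not tested: Dkk1 had a count of 0 in every library, Dkk4 had 2 counts in all, Wnt1 and Wnt8b 4 each, Wnt8a 23 and Rspo2 59. A count of 0 allows up to 0.0513 CPM in clodrosome A and up to 0.169 to 0.225 CPM in the other libraries (3 fragments, taken as 6 counts; counting error only).

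**Figure D2:**
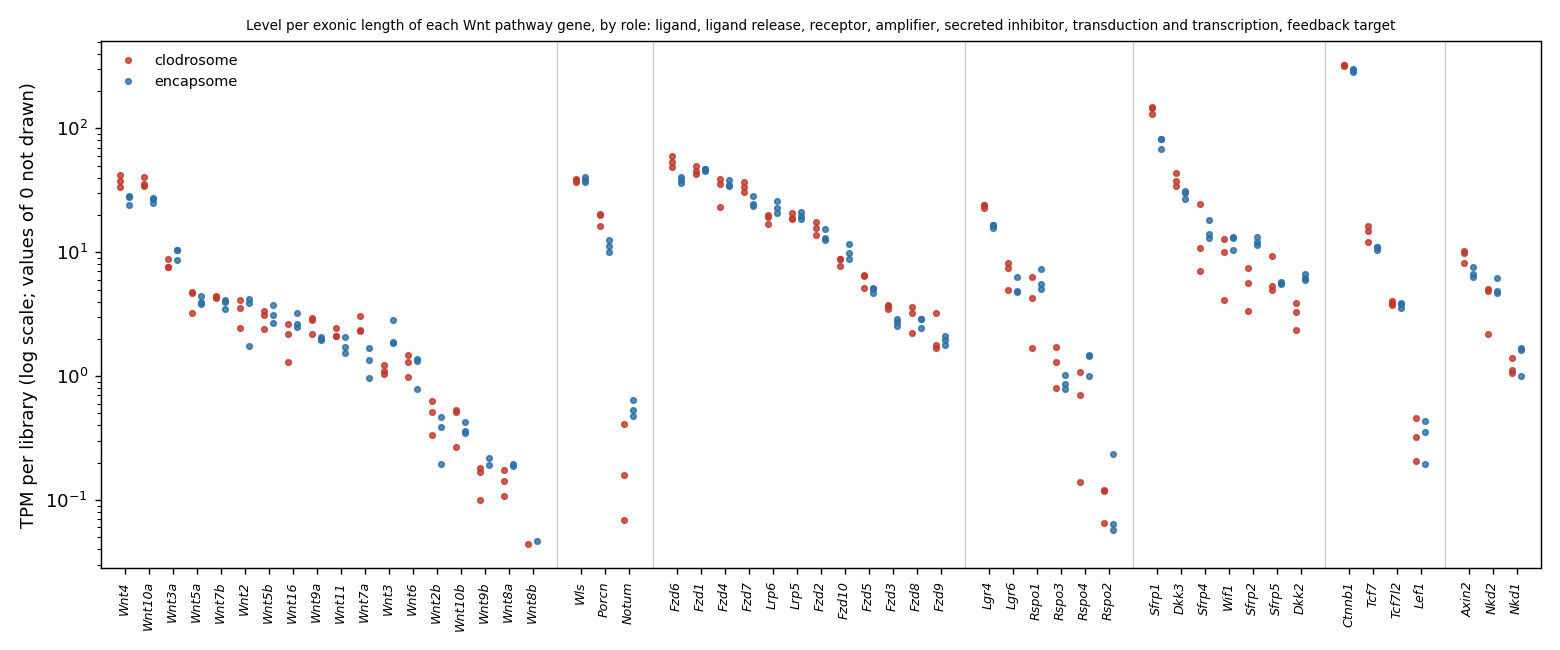
Level per exonic length in TPM on a log axis, one point per library and values of 0 not drawn, for Wnt pathway genes ordered within their role (Wnt1, Dkk1 and Dkk4, which were at 0 in at least 1 whole group, are left out). Ctnnb1, Sfrp1, Wnt4 and Wnt10a are among the highest genes of their roles, and the clodrosome points of Sfrp1, Wnt4 and Wnt10a all lie above the encapsome points.

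Among the 19 ligand genes 16 were tested, with 3 higher, 1 lower and 12 not called. The called share was 25%, beside 22.4% of all tested genes. Wnt4, known for its role in kidney tubules and also made in epidermis, had 62.3, 62.7 and 51.4 CPM in clodrosome libraries A, B and C, against 44.2, 38.9 and 46.3 CPM in encapsome libraries A, B and C. Every clodrosome library lay above every encapsome library, although clodrosome C lay closer to encapsome C than to clodrosome A or B. The log2 fold change of Wnt4 was 0.45 ± 0.101 (SE; edgeR adjusted p = 0.0126), and the call was lost without encapsome B (edgeR adjusted p = 0.0582). Wnt10a, a ligand of hair follicles and teeth whose loss causes ectodermal dysplasia, had 30.2, 35.1 and 36.4 CPM in clodrosome libraries A, B and C, against 25.5, 25.8 and 24.02 CPM in encapsome libraries A, B and C. The encapsome libraries were tightly grouped and all below the clodrosome ones, and the log2 fold change was 0.43 ± 0.0912 (SE; edgeR adjusted p = 0.0093). Wnt7a, a ligand with roles in limb patterning and muscle stem cells, stood at a low level, with 2.59, 3.85 and 2.71 CPM in clodrosome libraries A, B and C, against 1.16, 2.07 and 1.67 CPM in encapsome libraries A, B and C. On the log2 scale its difference was 0.88 ± 0.263 (SE; edgeR adjusted p = 0.0399), which rests on 671 counts in all 6 libraries. The call of Wnt7a was lost without clodrosome B, clodrosome C, encapsome A or encapsome C, with edgeR adjusted p-values from 0.069 to 0.112.

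Wnt3, an activator of beta-catenin signalling in follicle epithelium, moved the other way. It had 1.21, 1.28 and 1.38 CPM in clodrosome libraries A, B and C, against 2.13, 3.35 and 2.25 CPM in encapsome libraries A, B and C. Clodrosome libraries were close together and encapsome B stood above encapsome A and C. The log2 fold change was -1.01 ± 0.240 (SE; edgeR adjusted p = 0.016), and the call was lost without clodrosome A (edgeR adjusted p = 0.0557) or encapsome B (edgeR adjusted p = 0.0693). Wnt3a, its close relative, averaged 8.24 ± 0.505 CPM in clodrosome skin and 10.45 ± 1.08 CPM in encapsome skin (SD, n = 3 each) with groups that did not overlap, but did not pass (log2 fold change -0.34; edgeR adjusted p = 0.0797). Wnt5a, the main ligand of pathways that bypass beta-catenin, averaged 12.2 ± 1.92 CPM in clodrosome skin and 12.2 ± 0.762 CPM in encapsome skin (SD, n = 3 each). The difference of Wnt5a was 0.0066 on the log2 scale, with a 95% confidence interval of -0.29 to 0.31. Wnt7b averaged 7.98 ± 0.498 CPM in clodrosome skin and 7.25 ± 0.603 CPM in encapsome skin (SD, n = 3 each) and was not called (edgeR adjusted p = 0.492). The other uncalled ligands, Wnt2, Wnt2b, Wnt5b, Wnt6, Wnt9a, Wnt9b, Wnt10b, Wnt11 and Wnt16, averaged under 5 CPM over all libraries.

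Summed over the 19 ligand genes, the level was 111 ± 4.48 TPM in clodrosome skin and 89.8 ± 2.88 TPM in encapsome skin (SD, n = 3 each). The 3 clodrosome sums, at 115.8, 108.3 and 107.8 TPM, lay above the 3 encapsome sums, at 93.1, 88.0 and 88.2 TPM. Wnt4 and Wnt10a, both called, held most of these sums, at 37.7 and 36.9 TPM in clodrosome skin and 26.8 and 26.5 TPM in encapsome skin. The sums therefore say little about the other ligands, which were not summed apart. Several ligand genes lie side by side in the genome, and in none of the 3 neighbouring pairs with both genes tested were both called. With 22.4% of all tested genes called, 3 pairs are too few to tell whether neighbours differ from other genes. Wnt10a (chromosome 1, 74791516 to 74804179, GRCm38) starts 6.19 kb after the end of Wnt6, which is on the same strand and averaged 1.02 ± 0.167 CPM in clodrosome skin and 0.984 ± 0.294 CPM in encapsome skin (SD, n = 3 each). Wnt3 (chromosome 11, 103774150 to 103817957) lies 24.3 kb from Wnt9b on the opposite strand, and Wnt9b had 59 counts in all. Wnt3a and Wnt9a, 16.2 kb apart on opposite strands of chromosome 11, had log2 fold changes of -0.34 and 0.37, neither called.

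Of the genes that act on the ligand itself Porcn was called. Porcn (chromosome X, 8193848 to 8206525) had 21.4, 19.7 and 22.1 CPM in clodrosome libraries A, B and C, against 11.4, 14.6 and 13.02 CPM in encapsome libraries A, B and C. The lowest clodrosome library stood well above the highest encapsome library. Its log2 difference was 0.70 ± 0.112 (SE; edgeR adjusted p = 0.00252), or 1.62 times the encapsome level. Wls, the carrier of lipid-bearing Wnt proteins, was abundant and close between the groups, at 125 ± 3.76 CPM in clodrosome skin and 129.5 ± 3.85 CPM in encapsome skin (SD, n = 3 each). Its log2 difference of -0.057 had a 95% confidence interval of -0.21 to 0.093 (edgeR adjusted p = 0.589). Notum, the deacylase, had 94 counts in all and averaged 0.185 ± 0.149 CPM in clodrosome skin and 0.505 ± 0.0719 CPM in encapsome skin (SD, n = 3 each). It was not called (log2 fold change -1.17; edgeR adjusted p = 0.139), except without clodrosome A, where the value was -2.23 (edgeR adjusted p = 0.0346). Exons of other genes cover 38.1% of the exonic bases of Notum, and reads there are left out by the counting.

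All 12 receptor genes were tested, of which Fzd6, Fzd3 and Fzd7 rose and Lrp6 fell. The called share was 33.3%, beside 22.4% of all tested genes. Fzd6, which in mouse skin orients hair follicles and hairs, had 102.3, 93.8 and 94.6 CPM in clodrosome libraries A, B and C, against 73.4, 67.1 and 71.4 CPM in encapsome libraries A, B and C. The groups were far apart relative to their spread, and the log2 difference was 0.46 ± 0.0720 (SE; edgeR adjusted p = 0.00223). Fzd3, which acts with Fzd6 in planar polarity, had 17.1, 17.7 and 17.3 CPM in clodrosome libraries A, B and C, against 13.2, 14.2 and 12.6 CPM in encapsome libraries A, B and C. Its log2 fold change was 0.38 ± 0.0941 (SE; edgeR adjusted p = 0.0187), and the call was lost without clodrosome C, encapsome A or encapsome C (edgeR adjusted p from 0.0561 to 0.0804). Fzd7, a receptor for ligands that stabilise beta-catenin, had 59.0, 60.4 and 50.3 CPM in clodrosome libraries A, B and C, against 48.4, 43.2 and 42.1 CPM in encapsome libraries A, B and C. Clodrosome C and encapsome A came within 2 CPM of each other. The log2 fold change of Fzd7 was 0.34 ± 0.0934 (SE; edgeR adjusted p = 0.0281), and the call was lost without clodrosome A, clodrosome B, encapsome B or encapsome C (edgeR adjusted p from 0.0519 to 0.107).

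Of the co-receptor genes Lrp6 was called and Lrp5 was not. Lrp6 had 96.7, 91.4 and 95.9 CPM in clodrosome libraries A, B and C, against 135, 120.3 and 111 CPM in encapsome libraries A, B and C. Clodrosome libraries were nearly level, while encapsome libraries were higher and more spread, and the log2 fold change was -0.36 ± 0.0835 (SE; edgeR adjusted p = 0.0133). Lrp5, its paralog, averaged 70.5 ± 2.82 CPM in clodrosome skin and 73.7 ± 3.07 CPM in encapsome skin (SD, n = 3 each), with a log2 difference of -0.064 and a 95% confidence interval of -0.22 to 0.093. The difference between Lrp6 and Lrp5 in their fold changes was not tested. Fzd1, one of the most abundant Frizzled genes, averaged 71.8 ± 5.22 CPM in clodrosome skin and 74.6 ± 1.69 CPM in encapsome skin (SD, n = 3 each), and its interval of -0.22 to 0.11 on the log2 scale also spans 0. Fzd4, a receptor of blood vessels, had 84.1, 62.7 and 95.7 CPM in clodrosome libraries A, B and C, against 86.8, 98.7 and 91.5 CPM in encapsome libraries A, B and C. Clodrosome B was the lowest of the 6 libraries and clodrosome C the second highest, and Fzd4 was not called (edgeR adjusted p = 0.36). Fzd2, Fzd5, Fzd8 and Fzd10 were not called either, with log2 fold changes of 0.15, 0.23, 0.086 and -0.31, and Fzd9 averaged under 5 CPM. The summed level of the 10 Fzd genes was 205 ± 18.5 TPM in clodrosome skin and 182 ± 7.45 TPM in encapsome skin (SD, n = 3 each), and the groups overlapped.

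Of the amplifiers of Wnt signalling only the receptor gene Lgr4 was called among the 5 tested (20%, beside 22.4% of all tested genes). Lgr4 had 50.0, 57.0 and 49.0 CPM in clodrosome libraries A, B and C, against 36.6, 35.5 and 38.0 CPM in encapsome libraries A, B and C. All clodrosome libraries stood above all encapsome libraries, and the log2 fold change was 0.50 ± 0.0817 (SE; edgeR adjusted p = 0.00261). Lgr6, a marker of stem cells in the upper follicle, had 19.7, 13.5 and 18.8 CPM in clodrosome libraries A, B and C, against 16.2, 12.7 and 12.9 CPM in encapsome libraries A, B and C. Clodrosome B lay among the encapsome libraries, and Lgr6 was not called (log2 fold change 0.32; edgeR adjusted p = 0.18). Without clodrosome B it was called, at 0.47 (edgeR adjusted p = 0.0262). The R-spondin genes were low, with a summed level of 6.12 ± 3.13 TPM in clodrosome skin and 8.31 ± 1.61 TPM in encapsome skin (SD, n = 3 each), and the groups overlapped. Rspo1 had 2.92, 1.32 and 4.48 CPM in clodrosome libraries A, B and C, against 5.39, 3.76 and 4.19 CPM in encapsome libraries A, B and C, and Rspo4 averaged 0.555 ± 0.406 CPM in clodrosome skin and 1.19 ± 0.247 CPM in encapsome skin (SD, n = 3 each), in both cases with clodrosome B as the lowest library. Rspo1, Rspo3 and Rspo4 were not called (edgeR adjusted p = 0.262, 0.275 and 0.162), although Rspo1 and Rspo4 were under other settings.

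Secreted inhibitors changed in both directions. Sfrp1, which binds Wnt proteins and Frizzled receptors, had the highest level of any inhibitor gene, with 229.9, 257 and 209 CPM in clodrosome libraries A, B and C, against 136, 115 and 140.3 CPM in encapsome libraries A, B and C. The lowest clodrosome library lay far above the highest encapsome library, and the log2 fold change was 0.83 ± 0.105 (SE; edgeR adjusted p = 0.000716), or 1.78 times the encapsome level. Dkk3, a divergent member of the Dickkopf family that is found in epidermis and hair follicles, had 51.8, 50.9 and 42.0 CPM in clodrosome libraries A, B and C, against 38.1, 35.1 and 40.5 CPM in encapsome libraries A, B and C. Clodrosome C and encapsome C were within 2 CPM of each other. The log2 fold change of Dkk3 was 0.35 ± 0.0991 (SE; edgeR adjusted p = 0.0334), and the call was lost without clodrosome A or B or any 1 encapsome library (edgeR adjusted p from 0.0531 to 0.13).

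Sfrp2 and Dkk2 were lower in clodrosome skin. Sfrp2, which in skin is made by dermal fibroblasts, had 5.73, 4.87 and 2.65 CPM in clodrosome libraries A, B and C, against 9.85, 11.02 and 9.59 CPM in encapsome libraries A, B and C. The clodrosome libraries differed from each other, with C the lowest, but none reached the encapsome range. The log2 fold change was -1.18 ± 0.240 (SE; edgeR adjusted p = 0.00786), and exons of another gene cover 16.1% of the exonic bases of Sfrp2. Dkk2, which blocks the co-receptors Lrp5 and Lrp6 and in mice keeps plantar skin hairless, had 4.34, 3.45 and 5.25 CPM in clodrosome libraries A, B and C, against 9.36, 8.92 and 8.68 CPM in encapsome libraries A, B and C. The encapsome libraries agreed closely, and the log2 fold change was -1.04 ± 0.163 (SE; edgeR adjusted p = 0.0021). The fibroblast markers set beside them had a median log2 fold change of -0.68, with 8 of 13 lower and 5 not called, and their part in these differences was not tested.

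The remaining inhibitors were uneven among the clodrosome libraries. Sfrp4 had 36.4, 11.8 and 16.4 CPM in clodrosome libraries A, B and C, against 22.0, 29.2 and 21.3 CPM in encapsome libraries A, B and C. Clodrosome A was the highest and clodrosome B the lowest of all 6 libraries, so that the log2 difference of -0.14 (edgeR adjusted p = 0.812) became -0.77 without clodrosome A (edgeR adjusted p = 0.0204) and 0.15 without clodrosome B. Wif1, an inhibitor that binds Wnt proteins directly, had 8.65, 4.01 and 11.3 CPM in clodrosome libraries A, B and C, against 12.1, 12.3 and 9.94 CPM in encapsome libraries A, B and C. Clodrosome B was again the lowest and the groups overlapped (log2 fold change -0.51; edgeR adjusted p = 0.257). The same library was also the lowest for the macrophage and fibroblast marker sums, and a link was not tested. Sfrp5 averaged 4.61 ± 1.62 CPM in clodrosome skin and 4.11 ± 0.0165 CPM in encapsome skin (SD, n = 3 each) and was not called. Summed over the 9 inhibitor genes the level was 219 ± 20.4 TPM in clodrosome skin and 159 ± 6.40 TPM in encapsome skin (SD, n = 3 each), and Sfrp1 made up 64.9% of it with clodrosome and 49.0% with encapsome. Sfrp1 itself averaged 142 and 77.8 TPM in the same order. These inhibitor sums therefore say little about the other inhibitors, which were not summed apart.

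**Figure D3:**
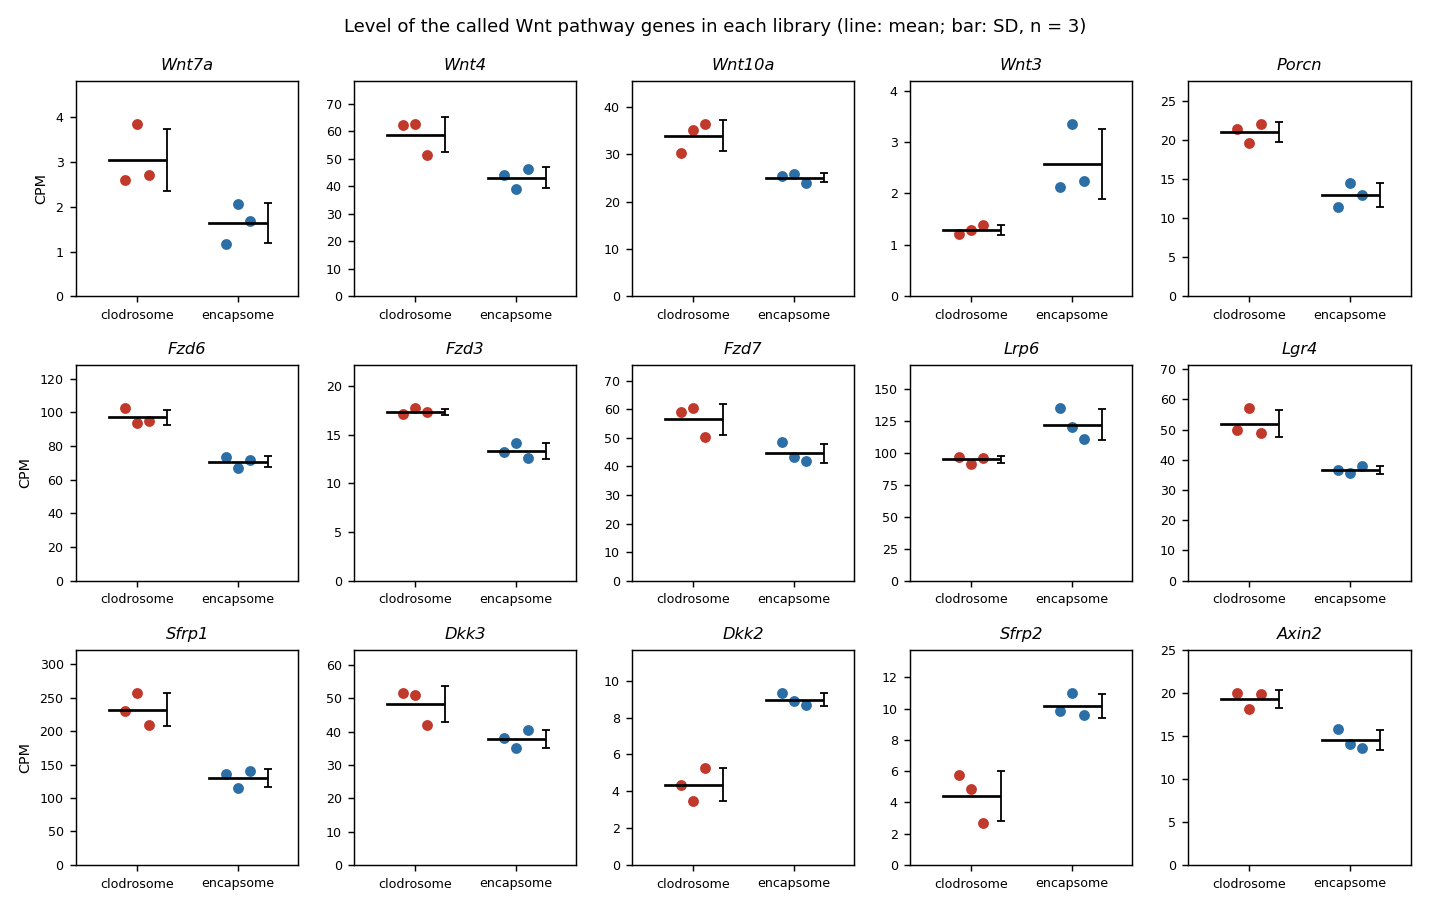
Level in CPM of the 15 called Wnt pathway genes, one point per library in the order A, B and C, with clodrosome in red on the left and encapsome in blue on the right, the mean as a line and the SD as a bar. In every panel all points of one group lie on one side of the other group.

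Of the 4 genes that carry the signal into the nucleus 0 were called by edgeR and 0 by DESeq2, and 1, Tcf7, had an unadjusted edgeR p under 0.05. The edgeR share over all tested genes was 22.4%. Ctnnb1 averaged 628 ± 44.2 CPM in clodrosome skin and 584 ± 12.5 CPM in encapsome skin (SD, n = 3 each). The highest value was in clodrosome B, clodrosome A lay within the encapsome range, and the log2 difference was 0.10 with a 95% confidence interval of -0.081 to 0.29. Tcf7, a factor of T cells and of follicle epithelium, had 15.7, 19.6 and 13.4 CPM in clodrosome libraries A, B and C, against 12.6, 12.1 and 12.9 CPM in encapsome libraries A, B and C. Its groups did not overlap, but it was not called (log2 fold change 0.37; edgeR adjusted p = 0.0913), whereas it was without clodrosome C (edgeR adjusted p = 0.0367) and with a term for the rRNA share (edgeR adjusted p = 0.0434). T cell markers summed to 39.5 to 52.6 CPM in clodrosome libraries and 39.9 to 41.8 CPM in encapsome libraries, with 1 of 12 higher and 1 lower. Clodrosome B was the highest library for both their sum and Tcf7, and a link between T cells and Tcf7 was not tested. Tcf7l2 averaged 12.9 ± 0.582 CPM in clodrosome skin and 12.8 ± 0.553 CPM in encapsome skin (SD, n = 3 each), with an interval of -0.21 to 0.24 on the log2 scale. Lef1, a factor of the dermal papilla and hair matrix, was low, at 1.09 ± 0.481 CPM in clodrosome skin and 1.11 ± 0.423 CPM in encapsome skin (SD, n = 3 each).

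Axin2, the usual readout of beta-catenin activity, was the only called gene among the 3 feedback targets (33.3%, beside 22.4% of all tested genes). It had 20.04, 18.1 and 19.8 CPM in clodrosome libraries A, B and C, against 15.9, 14.1 and 13.6 CPM in encapsome libraries A, B and C. The clodrosome libraries lay between 18.1 and 20.04 CPM, all above the encapsome libraries. The log2 fold change was 0.41 ± 0.100 (SE; edgeR adjusted p = 0.0173), and the call was lost without clodrosome A, clodrosome C, encapsome B or encapsome C (edgeR adjusted p from 0.0517 to 0.0752). Basal keratinocyte markers had a median log2 fold change of 0.41, with 6 of 9 higher and 0 lower. Markers of the follicle's outer sheath and stem cells had a median of 0.50, with 5 of 10 higher and 1 lower. The part of either in the Axin2 difference was not tested. Nkd1 and Nkd2, which restrain Dishevelled, were not called, with log2 fold changes of -0.30 and -0.44. Nkd2 had 8.28, 4.24 and 8.85 CPM in clodrosome libraries A, B and C, against 8.81, 11.6 and 8.79 CPM in encapsome libraries A, B and C, with clodrosome B lowest and encapsome B highest.

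Promoter sequences were available from RefSeq (GRCm38.p6) for 38 of the 56 members, among them 8 of the 15 called ones. The 250 bases before the transcription start are shown for Axin2, the target gene that was higher, and for Dkk2 and Sfrp2, inhibitor genes that were both lower. Each runs 5′ to 3′ on the coding (plus) strand, and capitals would mark CTTTGAT or its reverse complement, a form of the core to which Tcf and Lef factors bind.
Axin2 (chr11:108920099-108920348): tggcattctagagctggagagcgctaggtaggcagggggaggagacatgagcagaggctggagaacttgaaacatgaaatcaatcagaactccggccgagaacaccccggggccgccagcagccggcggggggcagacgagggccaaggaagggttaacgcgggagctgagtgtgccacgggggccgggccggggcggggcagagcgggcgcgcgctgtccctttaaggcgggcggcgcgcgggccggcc
Dkk2 (chr3:132085042-132085291): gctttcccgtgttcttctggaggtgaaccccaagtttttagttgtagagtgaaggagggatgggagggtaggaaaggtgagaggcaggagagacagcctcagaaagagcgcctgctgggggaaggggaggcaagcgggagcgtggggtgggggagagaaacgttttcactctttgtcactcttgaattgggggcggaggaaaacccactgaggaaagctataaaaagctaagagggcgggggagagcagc
Sfrp2 (chr3:83766071-83766320): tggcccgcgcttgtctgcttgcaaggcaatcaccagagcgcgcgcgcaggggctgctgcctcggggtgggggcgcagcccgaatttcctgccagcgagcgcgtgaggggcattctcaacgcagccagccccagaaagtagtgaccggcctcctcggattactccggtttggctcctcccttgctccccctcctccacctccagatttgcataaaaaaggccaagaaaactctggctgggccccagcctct
None of these windows holds the motif on either strand, and neither do those of the other 5 called members with a promoter. The search took only this exact string within 250 bases, so variant sites and sites elsewhere in a gene were not looked for. Among all 38 members with a window 1 holds it, Wnt11, compared with 3.21% of 32817 promoter windows of the same length. The G and C content of the windows was 69.2% for Axin2, 55.6% for Dkk2 and 63.6% for Sfrp2.

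Other genes of the pathway were taken from 5 lists. Several of these genes, among them Sostdc1, Tcf7l1 and Hoxc13, are also in the marker lists above. Beside the counts of called genes below, 9.41% of all tested genes were higher and 13% lower. Of 18 tested modulators and co-receptors outside the set 3 were higher and 4 lower, with a median log2 fold change of -0.17. Sostdc1, a secreted inhibitor of Wnt and BMP signals in skin appendages, rose, at 29.5 ± 6.95 CPM in clodrosome skin and 8.97 ± 1.63 CPM in encapsome skin (SD, n = 3 each), and the log2 difference was 1.72 ± 0.184 (SE; edgeR adjusted p = 0.000311). Draxin, an axon guidance protein that also inhibits Wnt signalling, was lower, with 1.53, 0.724 and 1.11 CPM in clodrosome libraries A, B and C, against 11.7, 10.6 and 10.8 CPM in encapsome libraries A, B and C. Its log2 fold change was -3.21 ± 0.228 (SE; edgeR adjusted p = 8.25e-05). Cthrc1, a secreted partner of Wnt proteins in polarity signalling, was lower at -2.33 on the log2 scale (edgeR adjusted p = 0.00276). Adgra2, a co-activator for Wnt7 ligands on endothelium, and Igfbp4, which binds insulin-like growth factors and can block Wnt receptors, were lower with log2 fold changes of -1.40 and -0.71 (edgeR adjusted p = 0.00019 and 0.00166). These 5 calls held in each of the 13 alternatives.

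The 21 genes of the beta-catenin destruction complex and signal transducers, all tested, had a median of 0.036, with 1 higher and 2 lower. Cxxc5, which binds Dishevelled and dampens the pathway, was lower at -0.70 (edgeR adjusted p = 0.00369). The kinase gene Csnk1e was higher at 0.33 and the Dishevelled gene Dvl2 lower at -0.37 (edgeR adjusted p = 0.0319 and 0.047). The call of Csnk1e was lost without clodrosome A or B or encapsome B or C, and that of Dvl2 without any 1 of the 6 libraries and under 4 other settings, among them the rRNA share term. Of 17 tested partners of beta-catenin in the nucleus and at cell junctions 4 were higher and 1 lower, with a median of -0.034. The co-repressor gene Tle1 rose, at 39.7 ± 2.14 CPM in clodrosome skin and 26.1 ± 0.455 CPM in encapsome skin (SD, n = 3 each), and the log2 difference was 0.60 ± 0.0755 (SE; edgeR adjusted p = 0.000691). The junction genes Ctnnd1, Ctnna1 and Cdh3 were higher by 0.31, 0.27 and 0.44 and the repressor gene Tcf7l1 was lower at -0.39. Of these only Tle1 was called in each of the 13 alternatives. The call of Ctnnd1 was lost without clodrosome C or encapsome B, that of Ctnna1 without clodrosome A or C or any 1 encapsome library, that of Cdh3 without clodrosome A or any 1 encapsome library or with the rRNA share term, and that of Tcf7l1 without any 1 library, with library totals alone or with no low-count filter.

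Of 17 tested genes reported elsewhere as targets of beta-catenin 3 were higher and 4 lower, with a median of 0.092. Ccnd1, cyclin D1, had 128, 96.1 and 113 CPM in clodrosome libraries A, B and C, against 80.5, 65.4 and 78.8 CPM in encapsome libraries A, B and C. Its log2 fold change was 0.59 ± 0.118 (SE; edgeR adjusted p = 0.00744). Fosl1, an AP-1 factor, and Hoxc13, a factor of the hair shaft, were higher by 0.74 and 0.65. Ephb2, a guidance receptor, and Id2, an inhibitor of helix-loop-helix factors, were lower at -0.50 and -0.45. The calls of Ccnd1 and Ephb2 held without each library. That of Fosl1 was lost without encapsome B or C, that of Hoxc13 without clodrosome A or C or encapsome A or C, and that of Id2 without clodrosome A or C or encapsome B or C.

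Among 20 genes of polarity signalling, all tested, 4 were higher and 3 lower, with a median of 0.027. Celsr2, an atypical cadherin, was higher at 101 ± 8.08 CPM in clodrosome skin and 72.4 ± 8.05 CPM in encapsome skin (SD, n = 3 each), and the log2 difference was 0.48 ± 0.0966 (SE; edgeR adjusted p = 0.00732). The membrane and adaptor genes Vangl1 and Prickle2 were higher by 0.24 and 0.35. Ror2, a receptor for Wnt5a, and Dact3, an inhibitor of Dishevelled, were lower at -0.79 and -0.82 (edgeR adjusted p = 0.0206 and 0.00916). The call of Ror2 was lost without clodrosome C or any 1 encapsome library, that of Prickle2 without clodrosome A or C or any 1 encapsome library, and that of Vangl1 without clodrosome A or C or encapsome B or C or with no low-count filter.

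Of the 15 called members 8 were called under each of 13 alternative settings: Wnt10a, Porcn, Fzd6, Lrp6, Lgr4, Sfrp1, Dkk2 and Sfrp2. The number of called members was 10 to 13 with 1 library left out, the lowest being 10 without encapsome B and 10 without encapsome C. With a term for the low or high side of the rRNA share 17 members were called, among them all 15.

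**Figure D4:**
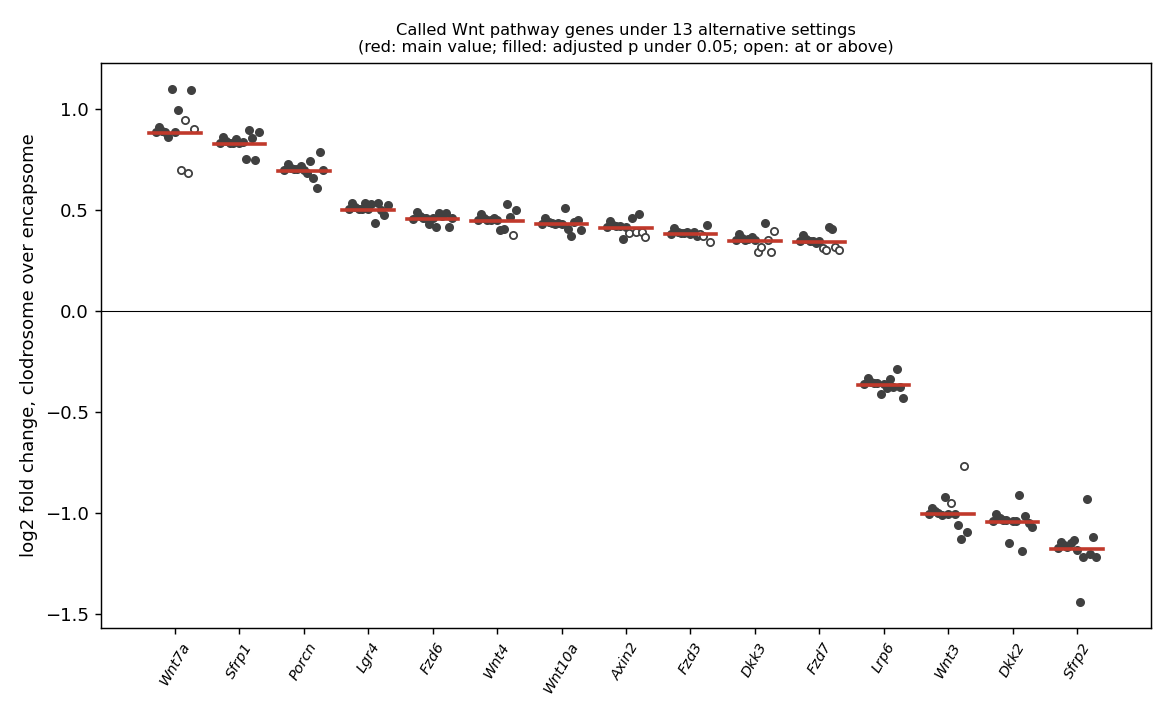
Log2 fold change, clodrosome over encapsome, of the 15 called Wnt pathway genes (horizontal axis) in the main analysis (red lines) and under 13 alternative settings (points, filled where the adjusted p stayed under 0.05). The open points belong to Wnt7a, Wnt4, Axin2, Fzd3, Dkk3, Fzd7 and Wnt3.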

How the data were processed

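Skin RNA was made into stranded, paired-end mRNA libraries, per the labels' protocols. The submitters' processing notes name mm10 as genome build and, as tools, DESeq2 1.34.0, featureCounts 1.6.2, StringTie 2.2.1, HISAT2 2.2.1 and Trimmomatic 0.36. The authors deposited raw counts of reads for each gene from featureCounts 1.6.2, per the file headers. The command there sets no option for pairs, strand or multiple mapping. By that tool's defaults each read end is counted, so counts are about double the fragments (63.6% to 69.7% of counts from 1 to 20 were even), antisense genes cannot be told from their partners, and reads in exons shared by 2 genes are left out. In 6 members (Notum, Fzd5, Sfrp2, Ctnnb1, Lef1 and Rspo3) over 10% of the exonic bases lie in another gene's exons.

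Columns were tied to groups by name. Their chi-square per gene within groups was 9.93 to 53.0, so no pair looked like 1 library. Symbols were found for 99.5% of the genes. Normalised values are CPM (counts scaled to library size, TMM factors 0.982 to 1.02) and TPM. Tests used edgeR 4.0.16 in R 4.3.3 (group as the only term; filterByExpr, minimum count 10, minimum total 15), with Benjamini-Hochberg adjustment over 17988 genes and a threshold of 0.05. The procedure was tested on simulated counts. Called members are named with every library's value, uncalled ones where they average at least 5 CPM, and list genes up to 5 per list by p at 1 CPM or more. Members outside these rules were named after their values were seen. The members and lists were chosen with earlier results of these data known. Alternatives were other normalisations, DESeq2 1.42.0, other filters, halved counts, an rRNA share term, each library left out and, added after seeing the data, a block on the numbers of the column names. Listed markers that matched no symbol, Tle5 and Krt85, were not analysed here.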

Additional observations from a re-analysis of the deposited data

How the results depend on the processing

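The 15 called members were 15 with median-of-ratios factors, library totals alone, a minimum count of 30, halved counts and DESeq2, 17 with the rRNA share term and 19 with no low-count filter, and each of these settings called all 15. Leaving out each library gave 10 to 13 called members, 2477 to 4396 called genes over all (4035 in the main analysis), 13 to 28 called genes of the pathway lists (29), 48 to 67 of the marker lists (63) and a member median of 0.043 to 0.14. The total was 2477 without encapsome B and 2642 without clodrosome C. The pathway lists had 18, 17, 19, 13 and 14 calls without clodrosome A, clodrosome C, encapsome A, encapsome B and encapsome C. Some uncalled members changed sign. With the rRNA share term Wnt10b was at -0.033, Wnt2 at -0.029, Wnt5a at -0.10, Wnt5b at 0.0094, Fzd8 at -0.017 and Lef1 at 0.32. With 1 library left out Wnt2 ranged from -0.28 to 0.20, Wnt5a from -0.063 to 0.13, Wnt5b from -0.28 to 0.0012, Wnt6 from -0.18 to 0.20, Wnt9b from -0.57 to 0.55, Fzd8 from -0.029 to 0.22, Fzd9 from -0.21 to 0.35, Sfrp4 from -0.77 to 0.15, Sfrp5 from -0.17 to 0.32, Lef1 from -0.37 to 0.22 and Tcf7l2 from -0.021 to 0.054. The cause of these shifts was not tested. Calls gained with no low-count filter were Rspo1, Rspo4, Wif1 and Tcf7 (edgeR adjusted p = 0.0404, 0.0374, 0.0107 and 0.0335), and Rspo1 was also called with the rRNA share term (edgeR adjusted p = 0.0365). The replicate numbers of the titles could not be tied to columns, but numbers 2 and 4 of the column names occur in both groups (clodrosome A with encapsome B, clodrosome C with encapsome C), and nothing states that they pair libraries. Their deviations from the group means correlated at -0.0358 and -0.0455. A replicate block on these numbers, chosen after seeing the data and with 1 residual degree of freedom, called 13 members (12 of the 15), 4293 genes over all, 24 of the pathway lists and 74 of the marker lists, with a member median of 0.14. Under it Wnt7a, Fzd3 and Dkk3 were not called (edgeR adjusted p = 0.208, 0.0665 and 0.113), Lgr6 was (edgeR adjusted p = 0.0105), and Wnt6 was at -0.083. With 3 libraries a group and few counts for several ligands and R-spondins, differences smaller than those called may have gone undetected.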
